A study of Mus musculus with 2 samples.

Results

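Layer 6 corticothalamic neurons (annotated CTGL) were examined in 2 single-nucleus ATAC-seq libraries of adult mouse primary motor cortex. The members are all nuclei that carry the name CTGL in the deposited annotation, 1637 of 16314 nuclei, of which 650 of 7440 were in replicate 1 and 987 of 8874 in replicate 2. Both libraries came from the MOp-2 dissection, which the methods place in brains of male C57BL/6J mice aged 56 to 63 days, and both were prepared in droplets with the 10x assay, where a transposase cuts open chromatin and each nucleus receives a barcode. Tissue was pooled over animals of 1 sex within a replicate according to the methods, which do not say this for the 10x libraries in particular. There was 1 condition, with no treatment and no altered allele, so nothing was compared between groups. Values are given per library, with mean and SD over 2 libraries for the main ones, and positions in the embedding and names of neighbours partly over both libraries together.

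Corticothalamic neurons lie in layer 6 of the cortex and send their main axon to the thalamus, with branches to the thalamic reticular nucleus and to layers above. They are glutamatergic and act on the thalamic relay from which the same cortical area is driven. The other glutamatergic names of the annotation are intratelencephalic neurons, which project within the cortex and to the striatum (ITL23GL, ITL4GL, ITL5GL and ITL6GL, by layer), pyramidal tract neurons, which project to brainstem and spinal cord (PTGL), and near-projecting neurons with short local axons (NPGL). Neurons of layer 6b, the deepest cortical layer, have no name of their own among the 17 names of these libraries. The study lists 3 marker genes for CTGL. Rell1, which encodes a protein related to the receptor RELT, spans 63908897 to 63968897 on chromosome 5 of mm10 (GRCm38, GENCODE M21), on the minus strand. Garnl3, which encodes a protein with a domain of GTPase-activating proteins, spans 32986224 to 33131654 on chromosome 2, also on the minus strand. 3110035E14Rik, matched as a synonym of Vxn, which encodes vexin, spans 9601199 to 9627143 on chromosome 1, on the plus strand. All 3 are annotated as protein-coding genes. The tables hold no value per gene, so the label CTGL was used as deposited and accessibility at its markers was not analysed here.

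Replicate 1 held 48179226 unique fragments and replicate 2 held 55337466, of which CTGL nuclei contributed 5005939 and 7151526. Of the barcodes, 105 occurred in both libraries. Their total fragment counts were identical in 0 pairs and their names in 11, where 8.79 would carry the same name if the 2 nuclei were unrelated. CTGL nuclei made up 6 of these barcodes in replicate 1 and 7 in replicate 2, and 1 barcode was CTGL in both. Without these barcodes the CTGL share of glutamatergic nuclei was 18.9% ± 3.06 (SD, n = 2 libraries), beside 18.9% ± 3.01 with them. Intervals given for shares are exact Clopper-Pearson 95% intervals and cover counting error only. Nuclei of 1 library are not replicates, and a paired exact permutation test over 2 libraries cannot give a p below 0.5, so no test is reported.

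CTGL nuclei fell into 2 separate islands of the UMAP embedding, in nearly the same proportion in both libraries. Islands were taken as sets of nuclei, of any name, that are linked by steps of at most 10 times the median distance between nearest neighbours (0.0209 units, giving a step of 0.209). The first island held 515 CTGL nuclei of replicate 1 and 773 of replicate 2, which was 79.2% (75.9 to 82.3) and 78.3% (75.6 to 80.9) of the CTGL nuclei in each library. The second island held 132 and 211, or 20.3% (17.3 to 23.6) and 21.4% (18.9 to 24.1). The mean share was 78.8% ± 0.645 in the first island and 20.8% ± 0.757 in the second (SD, n = 2 libraries), so that there were 3.90 nuclei of the first island per nucleus of the second in replicate 1 and 3.66 in replicate 2. The counting intervals of the 2 libraries overlapped in each island. The remaining CTGL nuclei numbered 3 in replicate 1 and 3 in replicate 2.

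**Figure D1:**
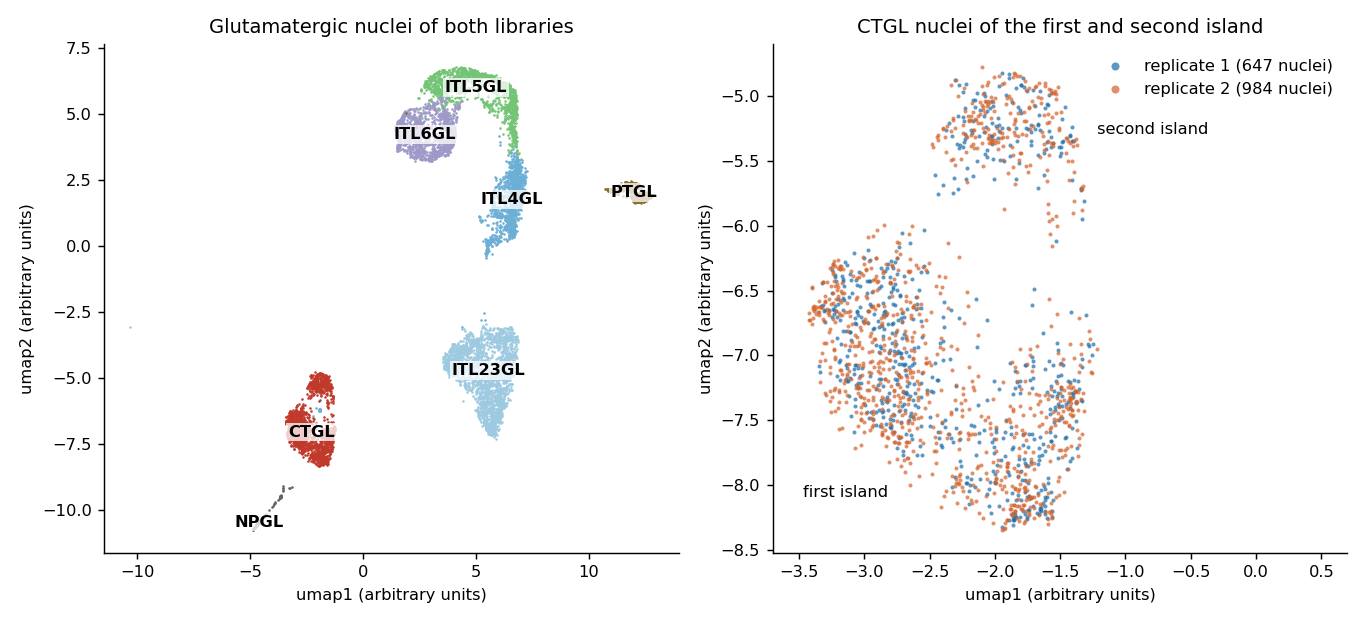
Positions of glutamatergic nuclei in the embedding (umap1 and umap2, arbitrary units). Left, nuclei of both libraries coloured by the 7 glutamatergic names. Right, CTGL nuclei of the first island (lower) and the second island (upper), coloured by library, 647 of replicate 1 and 984 of replicate 2, with nuclei of both libraries present throughout each island.

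The second island lay above the first along umap2. The first island reached from -8.34 to -5.99 on umap2 and from -3.42 to -1.22 on umap1, and the second from -6.15 to -4.78 and from -2.48 to -1.32. Their median positions were 2.13 units apart. CTGL nuclei of the first island had a median distance of 0.796 from its median position and those of the second a distance of 0.334, so the second was the more compact. The distance between nearest neighbours was similar, with medians of 0.0213 in the first island and 0.0228 in the second. The closest pair of nuclei from different islands was 0.294 apart, which is 14.1 times the median nearest-neighbour distance of all nuclei.

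**Figure D2:**
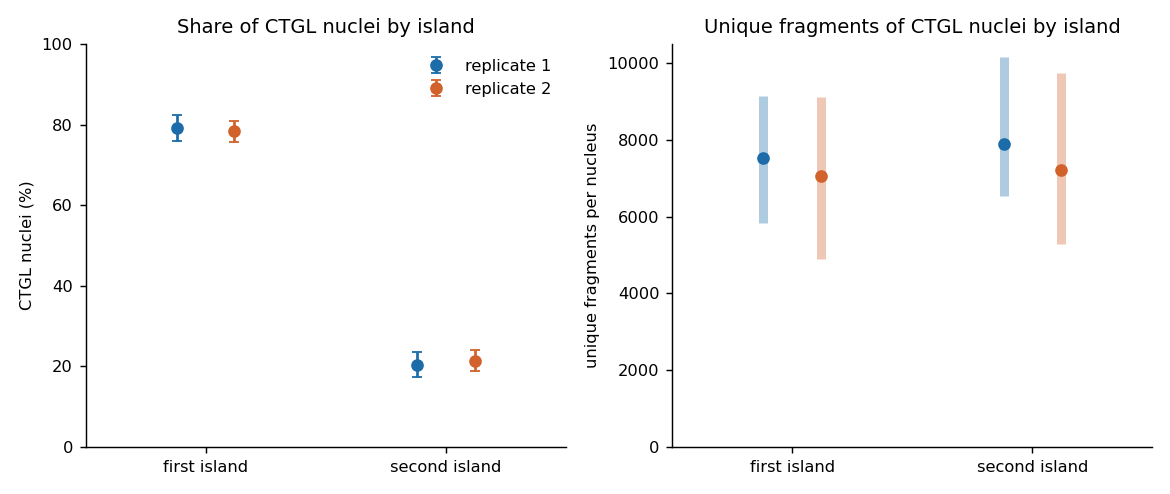
Left, share of CTGL nuclei (%) in the first and the second island for replicates 1 and 2, with exact 95% binomial intervals (counting error only). Right, median unique fragments per nucleus of the same nuclei, with bars from the lower to the upper quartile over nuclei. The shares of the libraries overlap in each island, and the quartile ranges of the islands overlap in each library.

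The separation depended on the length of the step. CTGL formed 2 islands of at least 20 nuclei at every multiple tried from 5 to 13, with 1269 to 1292 nuclei in the larger and 328 to 343 in the smaller, and 1 island of 1635 nuclei at multiples of 14, 15 and 20. Both islands joined at a multiple of 13.3, a distance of 0.277, and did so through stray CTGL nuclei, since the distance was the same when CTGL nuclei were linked alone. Within replicate 1 alone, where nuclei are sparser and the median nearest-neighbour distance was 0.0303, CTGL formed 2 islands at multiples of 5 to 9 (517 and 132 nuclei at 9) and 1 island of 649 nuclei at 10. Within replicate 2 alone, with a median of 0.0283, there were 2 islands at multiples of 5 to 10 (774 and 211 nuclei at 10) and 1 island of 986 at 11. At a multiple of 10 over the nuclei of both libraries combined, CTGL was the only one of the 7 glutamatergic names with 2 islands of at least 20 nuclei. Islands were linked through nuclei of any name, and ITL4GL, ITL5GL and ITL6GL lay mostly in a shared island. They made up 30.3%, 36.2% and 33.3% of it, so other names could join parts of these names. At 5, ITL4GL also formed 2 islands of at least 20 nuclei, with 1040 and 107, and ITL5GL did with 1311 and 42. Of the 145 NPGL nuclei, 112 lay in the largest part at 5 and 17 in the next, under the minimum of 20.

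**Figure D3:**
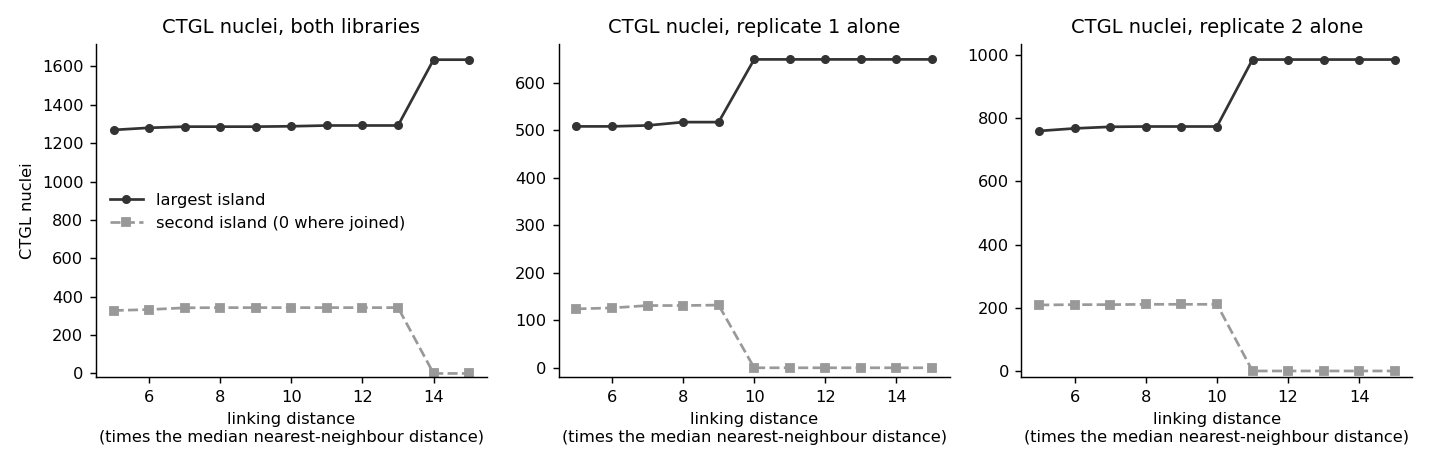
Number of CTGL nuclei in the largest island and in the second island (0 where both are joined or the second holds fewer than 20 nuclei) against the linking distance, in multiples of the median nearest-neighbour distance, for both libraries together and for each alone. The 2 islands stay apart up to a multiple of 13 in both libraries together, 9 in replicate 1 alone and 10 in replicate 2 alone.

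Nuclei of the 2 islands differed little in their fragment counts. The median number of unique fragments was 7532 in the first island and 7888.5 in the second in replicate 1, and 7058 and 7218 in replicate 2. The second island was thus higher by a ratio of 1.05 in replicate 1 and 1.02 in replicate 2 (mean 1.04 ± 0.0174), while the quartiles, 5825.5 and 9133.5 in the first island of replicate 1 and 6527 and 10171 in the second, overlapped widely. The median share of uniquely mapped fragments was 96.0% in the first island of replicate 1 and 96.1% in the second, and 96.1% in both islands of replicate 2. The second island was higher by 0.0864 percentage points in replicate 1 and by 0.0322 in replicate 2. Duplicates differed by -0.0568 and -0.0280 percentage points, second island minus first. Nuclei with more than 2 times the CTGL median of their library numbered 5 in the first island (0.971%, 0.316 to 2.25) and 1 in the second (0.758%, 0.0192 to 4.15) in replicate 1. In replicate 2 they numbered 8 (1.03%, 0.448 to 2.03) and 10 (4.74%, 2.30 to 8.54). The intervals of the 2 islands overlapped in replicate 1 and not in replicate 2. Both islands made up a larger share of the glutamatergic nuclei in replicate 2. The log2 ratio of the share of glutamatergic nuclei, replicate 2 over replicate 1, was 0.31 for the first island (95% counting interval 0.16 to 0.46) and 0.40 for the second (0.09 to 0.71). Their difference was 0.09 and its interval included 0 (-0.26 to 0.44).

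Few nuclei of other names shared the islands with CTGL. The names and the embedding come from the same accessibility data, so the shares of names in islands and among neighbours are a description only. The first island held 2 nuclei of vascular endothelial cells (VEC) and 1 of ITL4GL, all of replicate 2, so that CTGL made up 99.8% ± 0.273 of its nuclei. The second island held 1 ITL4GL nucleus of replicate 2 and 1 NPGL nucleus of replicate 1. Of the 30 nearest neighbours of a CTGL nucleus, 99.5% were CTGL in replicate 1 and 99.5% in replicate 2 (mean 99.5% ± 0.0402). All 30 carried the name CTGL for 611 nuclei of replicate 1 (94%) and 931 of replicate 2 (94.3%). The corresponding share was higher for PTGL (100% and 99.4%) and ITL23GL (97.1% and 95.7%), and similar for ITL4GL (94.7% and 93.9%). It was lower for ITL5GL (89.5% and 92.1%) and NPGL (72.3% and 80.6%). The lowest was that of ITL6GL (70.5% and 70.2%), the intratelencephalic neurons of the same layer, which border on other intratelencephalic names. The other names found among the neighbours of CTGL over both libraries were ITL4GL (0.234%), ITL6GL (0.116%), VEC (0.0977%) and NPGL (0.0305%), and none of them reached 1%. Neighbours from other names were scarcer in the first island, where 99.8% were CTGL, than in the second, where 99.3% were and 0.603% were ITL4GL.

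Of the ITL4GL nuclei, 12 lay closer to the median position of CTGL than to that of ITL4GL. Of these 12, 10 formed a component of their own in the space between the 2 CTGL islands, from -2.06 to -1.90 on umap1 and from -6.25 to -6.15 on umap2. The component held 5 nuclei of replicate 1 and 5 of replicate 2, and its closest CTGL nuclei were 0.232 away in the first island and 0.303 away in the second. Its nuclei carried a median of 10728 unique fragments in replicate 1 and 14863 in replicate 2, which was 1.41 and 2.09 times the CTGL median of the library. All 5 of replicate 1 and 6 of the 7 such nuclei of replicate 2 lay above the ITL4GL median of their library (7393 and 7249). Over both libraries the median share of uniquely mapped fragments in the component was 96.0% and that of duplicates 13.9%. By the same measure, 2 VEC nuclei of replicate 1 and 4 of replicate 2, 1 ITL23GL nucleus and 1 NPGL nucleus also lay closer to CTGL than to their own name, and no ITL5GL, ITL6GL or PTGL nucleus did.

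Of the 6 stray CTGL nuclei, 3 formed a component of their own and 1 lay alone, each with at least 28 CTGL nuclei among its 30 neighbours. The remaining 2 lay within the island of intratelencephalic names, 1 from each library, with 29 and 28 ITL6GL nuclei among their 30 neighbours. They carried 7708 and 2334 unique fragments.

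By the distance between median positions, NPGL was the name closest to CTGL in both libraries, at 4.15 units in replicate 1 and 4.05 in replicate 2 (mean 4.10 ± 0.0705). Vascular and leptomeningeal cells (VLMC) followed at 5.31 and ITL23GL at 8.17 (means over the libraries). ITL6GL was 12.3 units away, ITL4GL 12.5, ITL5GL 14.9 and PTGL 16.9. The first island lay nearer to NPGL than the second did (3.76 and 5.86 units), and the second nearer to ITL6GL (10.6 units, against 12.7 for the first). Distances in such an embedding are not to scale between islands and are given as a description of the deposited positions only. CTGL nuclei had a median distance of 0.897 from their own median position in replicate 1 and 0.942 in replicate 2 (mean 0.920 ± 0.0318). This spread was below that of ITL5GL (mean 1.35) and ITL23GL (1.27), and above that of ITL4GL (0.854), PTGL (0.413) and NPGL (0.24). It was within its own SD of that of ITL6GL (mean 0.942), but slightly below it in each library (0.921 in replicate 1 and 0.964 in replicate 2 for ITL6GL). The order depended on the measure. By the RMS distance CTGL was at 1.23 in both libraries, below ITL4GL (1.63 and 1.83) and above ITL6GL (0.953 and 0.979).

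Nuclei of the 2 libraries were mixed within CTGL, though less evenly along umap1 than along umap2. Of the 30 nearest CTGL neighbours of a replicate 1 nucleus, 58.3% came from replicate 2, where random mixing gives 60.3%, and of those of a replicate 2 nucleus 40.6% came from replicate 1, where random mixing gives 39.7%. The ratio to random mixing was 0.967 and 1.02 (mean 0.994 ± 0.0380). It was 0.957 and 1.02 in the first island and 1.00 and 1.01 in the second. When CTGL nuclei were divided into 5 bins of equal size along their main axis, which held 74.2% of the variance and ran along umap2, replicate 2 made up 58.4% to 62.1% of the bins. The range was 57.9% to 64.0% with 10 bins and 53.7% to 62.3% in nuclei of at least 5000 unique fragments. The median number of unique fragments ranged from 7133 to 8052 over the bins in replicate 1 and from 6852 to 7359 in replicate 2. The fifth bin, where 99.4% of nuclei belonged to the second island, had medians of 7843.5 and 7359. Across the main axis, along umap1, the share of replicate 2 ranged more widely, from 55.0% (49.5 to 60.5) in the second bin to 67.1% (61.7 to 72.1) in the first, which held the nuclei of lowest umap1 and 0 nuclei of the second island. The intervals of these 2 bins did not overlap. Median fragments over the 5 bins ranged from 7321 to 7867 in replicate 1 and from 6767 to 7311 in replicate 2. The lowest value of replicate 2 was that of the first bin. With 10 bins along umap1, the share of replicate 2 ranged from 51.5% to 70.1%.

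The number of CTGL nuclei was 1.01 to 1.59 times that of the intratelencephalic names of layers 4, 5 and 6. It was several times that of PTGL and NPGL. Per ITL6GL nucleus there were 1.13 CTGL nuclei in replicate 1 (95% counting interval 1.01 to 1.27) and 1.35 in replicate 2 (1.23 to 1.48), with a mean of 1.24 ± 0.151. Per ITL5GL nucleus there were 1.01 (0.909 to 1.13) and 1.26 (1.15 to 1.39), and per ITL4GL nucleus 1.12 (0.999 to 1.25) and 1.59 (1.44 to 1.75). CTGL was thus within counting error of ITL4GL and ITL5GL in replicate 1 and above both in replicate 2. Per ITL23GL nucleus there were 0.556 and 0.829 CTGL nuclei, fewer in both libraries. Per PTGL nucleus there were 3.53 (3.00 to 4.16) and 3.03 (2.67 to 3.43), intervals that overlapped between the libraries. Per NPGL nucleus there were 7.83 (6.23 to 9.84) and 15.9 (12.3 to 20.6), intervals that did not. Each ratio except that to PTGL was larger in replicate 2.

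**Figure D4:**
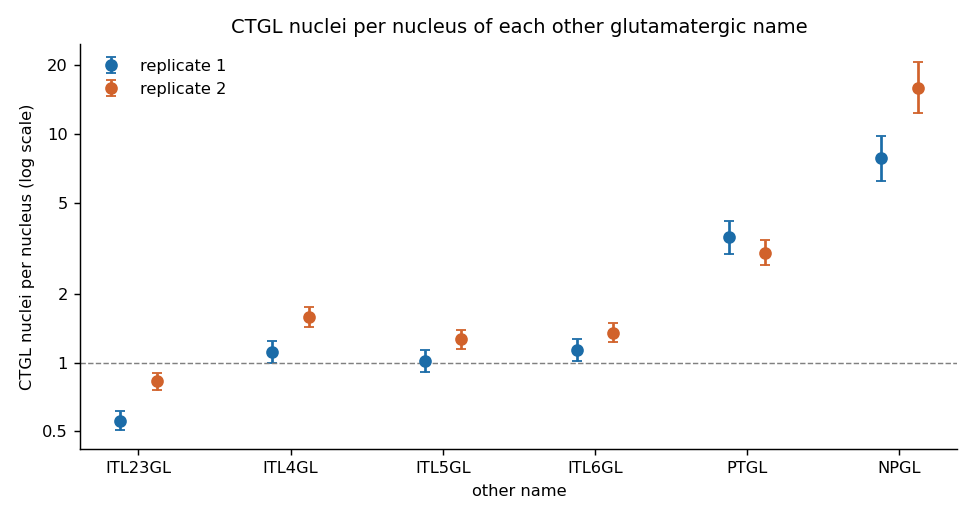
Number of CTGL nuclei per nucleus of each other glutamatergic name (log axis) in replicates 1 and 2, with 95% counting intervals by the log method. The dashed line marks equal numbers. ITL23GL lies below the line and PTGL and NPGL lie above it in both libraries, and ITL4GL and ITL5GL reach the line in replicate 1.

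Among glutamatergic nuclei, the part that CTGL contributed in fragments was smaller than its part in nuclei. CTGL nuclei held 15% of the unique fragments of all glutamatergic nuclei in replicate 1 and 18.6% in replicate 2 (mean 16.8% ± 2.57), while they made up 16.7% and 21% of the nuclei. A CTGL nucleus had a median of 7601 unique fragments in replicate 1 and 7107 in replicate 2 (mean 7354 ± 349). This was 0.882 and 0.889 times the median of the other glutamatergic nuclei, a ratio that was close in the 2 libraries (mean 0.885 ± 0.00500). CTGL was below PTGL (ratios 0.691 and 0.675), ITL5GL (0.811 and 0.849), ITL6GL (0.860 and 0.903) and ITL23GL (0.886 and 0.903), and above NPGL (1.13 and 1.11). Against ITL4GL the order differed between the libraries, with ratios of 1.03 and 0.980.

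**Figure D5:**
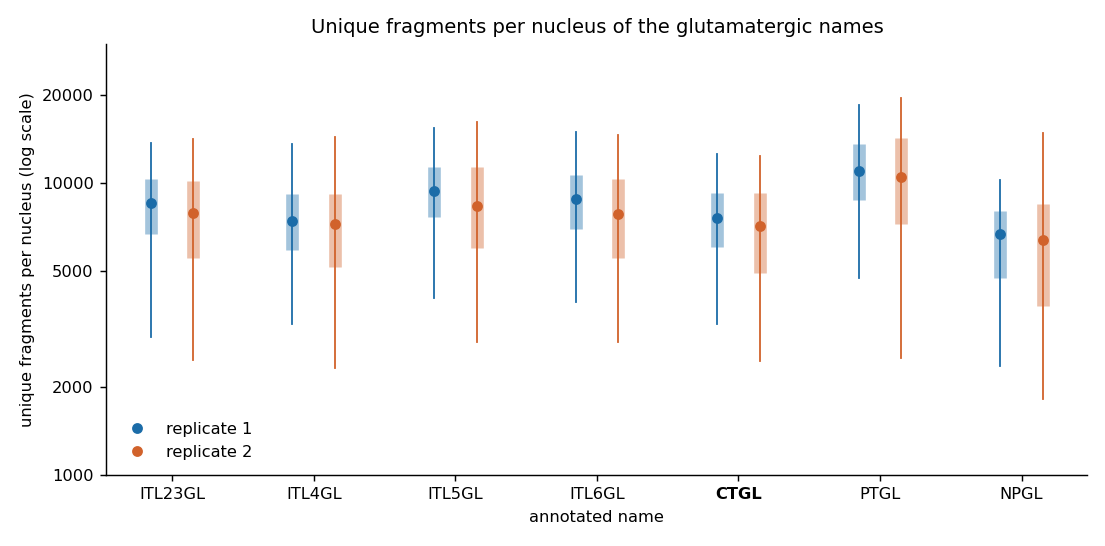
Unique fragments per nucleus (log axis) of the 7 glutamatergic names in replicates 1 and 2. Points are medians, thick bars the range between quartiles and thin lines the range from the 5th to the 95th percentile over nuclei. CTGL medians lie at 7601 and 7107, below those of ITL5GL, ITL6GL, ITL23GL and PTGL and above those of NPGL in both libraries.

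CTGL nuclei of replicate 2 were the more variable in depth. Unique fragments ranged from 1041 to 21070 in replicate 1 and from 1016 to 27866 in replicate 2, with quartiles of 6055.5 and 9283 and of 4928 and 9230. The upper quartiles were thus nearly equal and the lower quartile was lower in replicate 2. Of the CTGL nuclei, 15.2% in replicate 1 and 25.6% in replicate 2 had under 5000 unique fragments, and 2.62% and 2.94% had under 2000 (17 and 29 nuclei). Over the other glutamatergic nuclei the share under 5000 fragments was 11.2% and 19.1%. Nuclei with more than 2 times the CTGL median numbered 6 in replicate 1 (0.923%) and 18 in replicate 2 (1.82%). The corresponding shares of the other glutamatergic nuclei, against the median of these nuclei pooled, were 1.61% and 4.74%. Taken singly, each against its own median, ITL23GL (0.855%), ITL5GL (0.468%) and PTGL (0.543%) were below CTGL in replicate 1. ITL4GL, ITL6GL and NPGL were above it there, and all 6 names were above it in replicate 2. The SD of the log10 of unique fragments was 0.191 for CTGL in replicate 1 and 0.218 in replicate 2, with 0.200 and 0.237 for the other glutamatergic nuclei. These other nuclei pool 6 names of different depth, and in replicate 1 the SD of ITL6GL (0.189) and ITL4GL (0.190) taken singly was slightly below that of CTGL.

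The median share of uniquely mapped fragments of CTGL nuclei was 96.04% in replicate 1 and 96.10% in replicate 2. It was lower than that of ITL23GL, ITL4GL, ITL5GL, ITL6GL and PTGL in both libraries, by 0.0586 to 0.241 percentage points, and higher than that of NPGL by 0.138 and 0.137. When glutamatergic nuclei were divided into 10 bins by total fragments, CTGL had the lower mean in 8 of 10 bins of replicate 1 and in all 10 of replicate 2, and the differences weighted by CTGL nuclei were -0.0681 and -0.230 percentage points. The difference between medians, against the other names pooled, was -0.102 and -0.194 percentage points. Replicate 2 also held a tail of low values. A share under 94% was found in 2 CTGL nuclei of replicate 1 (0.308%, 0.0373 to 1.11) and in 21 of replicate 2 (2.13%, 1.32 to 3.23). In replicate 1 there was 1 in each island. In replicate 2 there were 19 of 773 nuclei in the first island (2.46%, 1.49 to 3.81) and 2 of 211 in the second (0.948%, 0.115 to 3.38). The intervals of the islands overlapped. In the other glutamatergic nuclei it was found in 0.371% and 1.64% (1.26 to 2.10 in replicate 2), so this tail was larger in replicate 2 there too. The replicate 2 intervals of CTGL and of these nuclei overlapped. Taken singly, ITL4GL (0.687% and 3.54%) and NPGL (3.61% and 4.84%) had larger shares than CTGL in both libraries. PTGL did in replicate 1 only (1.09%), and ITL23GL, ITL5GL and ITL6GL had smaller shares in both.

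Of the uniquely mapped fragments of CTGL nuclei, a median of 99.47% were properly paired in replicate 1 and 99.52% in replicate 2, and in the bins by total fragments CTGL had the higher mean in 10 of 10 bins of each library, by 0.0353 and 0.0383 percentage points on average. This holds against the other names pooled. The CTGL median was below that of ITL4GL, by a difference of -0.0128 and -0.0129 percentage points, and in replicate 1 also below that of ITL5GL (-0.00427). Duplicates made up a median of 13.6% of the properly paired fragments of CTGL nuclei in replicate 1 and 14.6% in replicate 2. The interquartile ranges, 13.11% to 14.06% and 13.99% to 15.07%, scarcely overlapped between the libraries. The other glutamatergic nuclei differed between the libraries in the same way, with medians of 13.54% and 14.50%. In the same bins CTGL exceeded the other glutamatergic nuclei by 0.165 percentage points in replicate 1 (10 of 10 bins) and by 0.163 in replicate 2 (9 of 10 bins). The difference between medians was smaller, 0.0415 and 0.0716 against the other names pooled, and near 0 against ITL6GL (-0.0144 and 0.0208) and ITL4GL (-0.00202 and 0.0273). Within CTGL, duplicates were more frequent in deeper nuclei. When CTGL nuclei were divided into 4 parts of equal size by unique fragments, from the shallowest to the deepest, the median went from 13.03% to 14.02% in replicate 1 and from 14.07% to 14.81% in replicate 2. Properly paired fragments went from 99.34% to 99.57% and from 99.42% to 99.59%. Fewer than 10% duplicates were found in 1 CTGL nucleus of replicate 1 and 4 of replicate 2, which had 1306 to 1822 unique fragments.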

How the data were processed

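According to the methods, the authors aligned reads to mm10 with bwa, kept properly paired fragments of mapping quality above 30 and under 1000 bp, removed duplicates, and kept nuclei with at least 1000 fragments and a TSS enrichment above 10. They also removed doublets and barcode collisions. In the submitters' processing notes both Cell Ranger ATAC and BWA are named, with no version, and the role of the former is not stated. The deposited tables hold 5 whole-number counts per nucleus, namely of all fragments, of those uniquely mapped, of those also properly paired, of unique ones and of mitochondrial ones (0 in every nucleus). The authors also deposited the log10 of unique fragments plus 1, UMAP coordinates, which are a score without unit, and the name. The paper shows an embedding of the 10x nuclei by themselves and another made jointly with combinatorial indexing nuclei, and which of them the coordinates belong to is not given. The minimum of 1000 fragments favours deeply covered nuclei.

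Shares of each library, ratios with 95% counting intervals, islands (components linked within 10 times the median nearest-neighbour distance, of at least 20 nuclei) and 30 nearest neighbours were computed with Python 3.11.15, numpy 2.4.6, pandas 2.3.3 and scipy 1.17.1 (figures with matplotlib 3.10.9). The intervals and the linking into islands were tried on simulated data. There the case of 2 islands was linked at a distance below the simulated gap, so the 2 could not join. Neighbours, mixing and axis bins were not simulated. All 7 glutamatergic names, names above 1% of neighbours and 3 marker genes were to be named. The members and lists were chosen with earlier results of these data known. The second island, the nuclei between the islands, low mapping shares and 4 parts by depth were examined after the embedding was seen.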

Additional observations from a re-analysis of the deposited data

How the results depend on the processing

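Of 117 values recomputed with both libraries, 92 stayed within 1 SD of the libraries or, for log2 ratios, axis bins and shared barcodes, within counting error, and no log2 ratio changed sign. CTGL remained nearest to NPGL in each of 7 settings, all nuclei included. With at least 5000 unique fragments, the CTGL median was 8056 and 0.904 times that of the other glutamatergic nuclei, CTGL made up 14.1% of all nuclei, 99.46% of neighbours were CTGL, the islands held 78.0% and 21.9% of CTGL, and 31 barcodes were shared. Without the deepest 5% of nuclei the ratio of medians was 0.920 and 99.62% of neighbours were CTGL. With all neurons as denominator the CTGL share was 15.5%. Uniquely mapped fragments summed over nuclei came to 95.99%. With 10 neighbours 99.61% were CTGL. The RMS spread was 1.23, which turned the order with ITL4GL. At least 2000 fragments left 85 shared barcodes, and the alternative without them, chosen after seeing the data, left 0.

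Islands were sensitive to the linking distance. At 5 times, 77.6% and 20.004% of CTGL lay in the first and the second island. At 15 times (chosen after seeing the data) and at 20 times, 99.9% and 0% did, and CTGL made up 99.1% of the joined island. Within each library alone at 10 times the means were 89.1% and 10.7%, since replicate 1 then formed a single island.

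With each replicate left out in turn, the share of the first island was 78.4% to 99.8%, that of the second 0% to 21.4%, CTGL made up 99.0% to 99.8% of the island and 99.46% to 99.61% of neighbours. Where a value is the mean of 2 library values, leaving out a library cannot move it by 1 SD and is no check; only islands and neighbours are recomputed by it. There was 1 condition, so no groups could be compared. Names were compared within each library and so paired by library, with no test because 2 libraries are too few for one. Depth and 2 libraries limit all values, and neither TSS enrichment nor doublet scores of single nuclei were analysed here.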
